A study of Schizosaccharomyces pombe with 4 samples.

Results

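The mitochondrial genome of the fission yeast Schizosaccharomyces pombe was followed from one end of its map to the other in wild-type cells and in cells that lack eIF3e. Its members are all features that the deposited table places on chromosome M, 38 of 6808, and all lie on the plus strand. They are 2 rRNAs, 25 tRNAs, 8 protein-coding genes and 3 reading frames inside introns. The wild-type strain was h- with ura4-D18 and leu1-32. The deletion strain carried those same 2 markers and int6::kanMX6, in which a drug resistance cassette replaces the eIF3e gene int6. Both strains grew in supplemented yeast extract (YES) medium, and 2 total-RNA libraries of each were sequenced after rRNA depletion.

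The mitochondrial genome encodes a handful of respiratory chain and ATP synthase subunits, 1 ribosomal protein, and the rRNAs and tRNAs with which the organelle translates them. Its RNA is made as long precursors in which tRNAs stand between the other genes. RNase P cuts each tRNA at its 5′ end and RNase Z at its 3′ end, which also frees the neighbouring mRNAs and rRNAs. eIF3e is a subunit of the factor that starts translation in the cytosol, where the nuclear partners of these proteins are made.

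The libraries of wild type summed to 17485020 and 9926548 reads over all features for replicates 1 and 2, and those of the deletion to 28254322 and 16679123. The deleted gene int6 kept 1 and 10 reads in the deletion, against 504 and 194 in wild type. Nuclear rRNA still took 47.6% and 56.6% of wild-type reads and 51.9% and 64.1% of deletion reads. The labels do not state whether replicates were separate cultures, so p-values measure only the spread between these libraries, which may be technical. In RNA from whole cultures, more mitochondrial genomes per cell and more RNA per genome cannot be told apart, nor can fewer cells of a kind and less RNA per cell.

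Mitochondrial features took 10.4% and 8.15% of all reads in wild type, against 13.0% and 8.26% in the deletion. These groups overlap, and the means of 9.29% ± 1.62 and 10.6% ± 3.32 (SD, n = 2) gave an exact permutation p of 0.67. With nuclear rRNA left out of the total, the shares were 19.9% and 18.8% in wild type and 26.9% and 23.0% in the deletion, and the groups no longer overlapped.

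Most mitochondrial transcripts measured higher in the deletion, while the cob intron frame and 7 tRNAs, among them those for glycine and aspartate, did not. All 38 passed the filter on low counts, and 30 had a positive log2 change, with a median of 0.96 against 0.00 over the 5915 features tested. In TMM-scaled CPM, the strains did not overlap for 21 of the 38 with the deletion higher, against 20.1% of all features tested, and for 1 with the deletion lower, against 21.4%. CPM are reads scaled to a common library total with edgeR's TMM factors. In the deposited RPKM, which are scaled by library reads and transcript length, these counts were 21, against 6.32%, and 4, against 19.9%. The members differed between the scales: rnl, rns, atp9 and tRNA-His were higher without overlap in CPM alone, and tRNA-Lys, tRNA-Leu(uag), tRNA-Cys and tRNA-Val in RPKM alone. A log2 change above 1 was fitted for 18, against 5.55% of all features. Neighbours on this map share precursors, so these counts are not over independent genes.

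No mitochondrial feature passed edgeR's quasi-likelihood test at an adjusted p of 0.05, in a fit that called 0.0169% of all features higher and 0.0% lower. At an unadjusted p under 0.05 that test gave 15 of the 38 as higher and 0 as lower, against 4.8% and 5.31% of all features. DESeq2's Wald test called 10 as higher at an adjusted p under 0.05 and 0 as lower, against 0.828% and 0.693%. The 10 were cox1, both of its intron frames, cox3, cob, atp6, rps3, and the tRNAs for phenylalanine, tyrosine and the initiator methionine. With replicate number as a block, edgeR called 16 of the 38 higher and 0 lower at an adjusted p under 0.05. That fit called 88 higher and 105 lower over all features. The labels do not say what libraries of the same replicate number share.

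**Figure D1:**
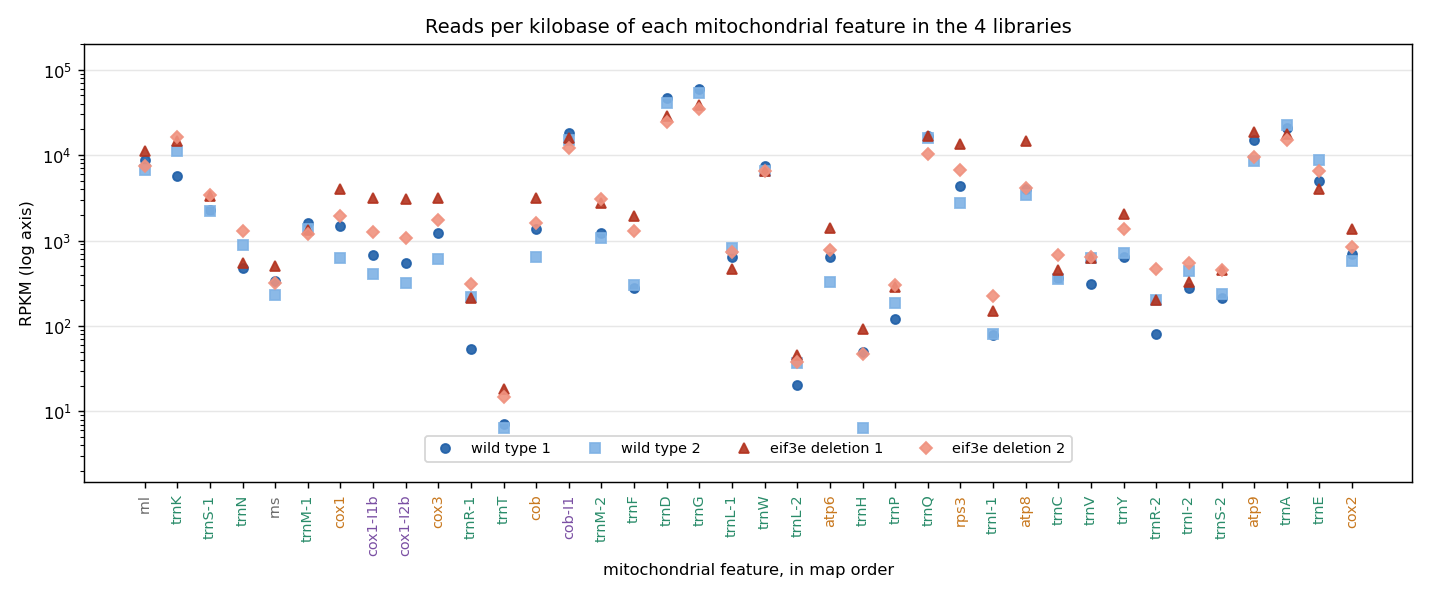
Deposited RPKM (log axis) of the 38 mitochondrial features in map order, 1 point per library, with tick labels in grey for rRNA, green for tRNA, orange for protein-coding genes and purple for intron frames. Numbers after trn names count repeats in map order. Levels ran from 6.44 RPKM for trnT and trnH in wild-type replicate 2 to 58798 RPKM for trnG in wild-type replicate 1.

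The 2 rRNAs, which form the core of the mitochondrial ribosome, measured higher in the deletion, short of the test's threshold. Levels are given as CPM, and comparisons between genes use RPKM. The large-subunit rRNA gene rnl (positions 1 to 2822) measured 20601 and 23926 CPM in wild type against 28181 and 31721 CPM in the deletion. The small-subunit gene rns (positions 3131 to 4552) measured 392 and 408 CPM against 626 and 680 CPM. Groups did not overlap for either gene in CPM, but overlapped for both in RPKM, at 8846 and 6764 against 11286 and 7547 for rnl and 334 and 229 against 497 and 321 for rns. The log2 change was 0.43 (SE 0.60) for rnl and 0.71 (SE 0.31) for rns, at edgeR adjusted p of 0.855 and 0.498. Per length, rnl exceeded rns by ratios of 26.5 and 29.5 in wild type and 22.7 and 23.5 in the deletion. rRNA was depleted before sequencing, and the part of that step in these values was not tested.

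The protein-coding genes measured higher in the deletion. All 8 lay above wild type in both deletion libraries in CPM, against 20.1% of all features tested. In RPKM 7 did, against 6.32%, and atp9 overlapped. The log2 changes ran from 0.42 to 1.70, with a median of 1.39. An unadjusted edgeR p under 0.05 was found for 7 of the 8, against 4.8% of all features called higher, atp9 being the exception. cox1, cox2 and cox3 encode the core subunits of cytochrome oxidase. cox1 (positions 4886 to 8790, listed as SPMchr1T.01) measured 1949 and 1249 CPM in wild type against 5701 and 4721 CPM in the deletion. Its means were 1599 ± 495 and 5211 ± 693 CPM (SD, n = 2), a log2 change of 1.70 (SE 0.47, edgeR adjusted p 0.331). In CPM the lower deletion library thus stood well above the higher wild-type one. The gap was narrower in RPKM, at 1464 and 617 in wild type against 3992 and 1964 in the deletion.

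The cytochrome oxidase genes cox3 and cox2 lie far apart on the map. cox3 (positions 8947 to 9765) measured 831 and 626 CPM in wild type against 2258 and 2137 CPM in the deletion, a log2 change of 1.59 (SE 0.39, edgeR adjusted p 0.261). cox2 (positions 18561 to 19307), the last feature of the map, measured 433 and 540 CPM against 913 and 928 CPM, a log2 change of 0.92 (SE 0.33, adjusted p 0.420). Neither gene's groups overlapped, and the ratio of cox3 to cox1 per length was 0.840 and 0.988 in wild type and 0.781 and 0.892 in the deletion. These ratios overlap between strains (exact permutation p 0.67).

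cob encodes cytochrome b of the bc1 complex, and rps3 a protein of the small mitochondrial ribosomal subunit. cob (positions 10173 to 13862) measured 1305 and 937 CPM in wild type against 3240 and 2814 CPM in the deletion, a log2 change of 1.43 (SE 0.41, edgeR adjusted p 0.337). Summed with its intron frame cob-I1, which holds far more reads, the locus had a log2 change of 0.0019. rps3 (positions 15954 to 16637) measured 2447 and 2380 CPM against 8115 and 6747 CPM, a log2 change of 1.62 (SE 0.46, adjusted p 0.337). Neither gene's groups overlapped. The wild-type libraries of rps3 lay close together in CPM but not in RPKM, at 4335 and 2775 against 13408 and 6623 in the deletion. For cob the RPKM were 1358 and 642 in wild type against 3145 and 1623 in the deletion.

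The mitochondrial genes for ATP synthase encode subunits of its membrane part. atp6 (positions 14756 to 15529) measured 405 and 321 CPM in wild type against 966 and 894 CPM in the deletion, a log2 change of 1.36 (SE 0.33, edgeR adjusted p 0.271). atp8 (positions 16914 to 17060) measured 491 and 622 CPM against 1878 and 911 CPM, a log2 change of 1.33 (SE 0.45, adjusted p 0.400). Its groups did not overlap, but the deletion libraries of atp8 lay far apart. atp9 (positions 17806 to 18030), which encodes the ring subunit, measured 2771 and 2426 CPM against 3733 and 3211 CPM, a log2 change of 0.42 (SE 0.42, adjusted p 0.792).

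Per length, atp9 was the most abundant of the 8 mRNAs in every library. It held 14923 and 8602 RPKM in wild type and 18752 and 9581 RPKM in the deletion. rps3 and atp8 took ranks 2 and 3 in every library, changing places between libraries, and cox1, cob and cox3 took ranks 4 to 6. cox2 and atp6 were lowest, with wild-type levels of 702 and 577 RPKM for cox2 and 634 and 331 RPKM for atp6. The ratio of atp9 to atp6 per length was 23.5 and 26.0 in wild type and 13.3 and 12.4 in the deletion. That of rps3 to atp9 was 0.291 and 0.323 in wild type and 0.715 and 0.691 in the deletion. The groups did not overlap for either ratio, and each exact permutation p was 0.33, the smallest this design allows. These ratios do not depend on how libraries were scaled to nuclear RNA.

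**Figure D2:**
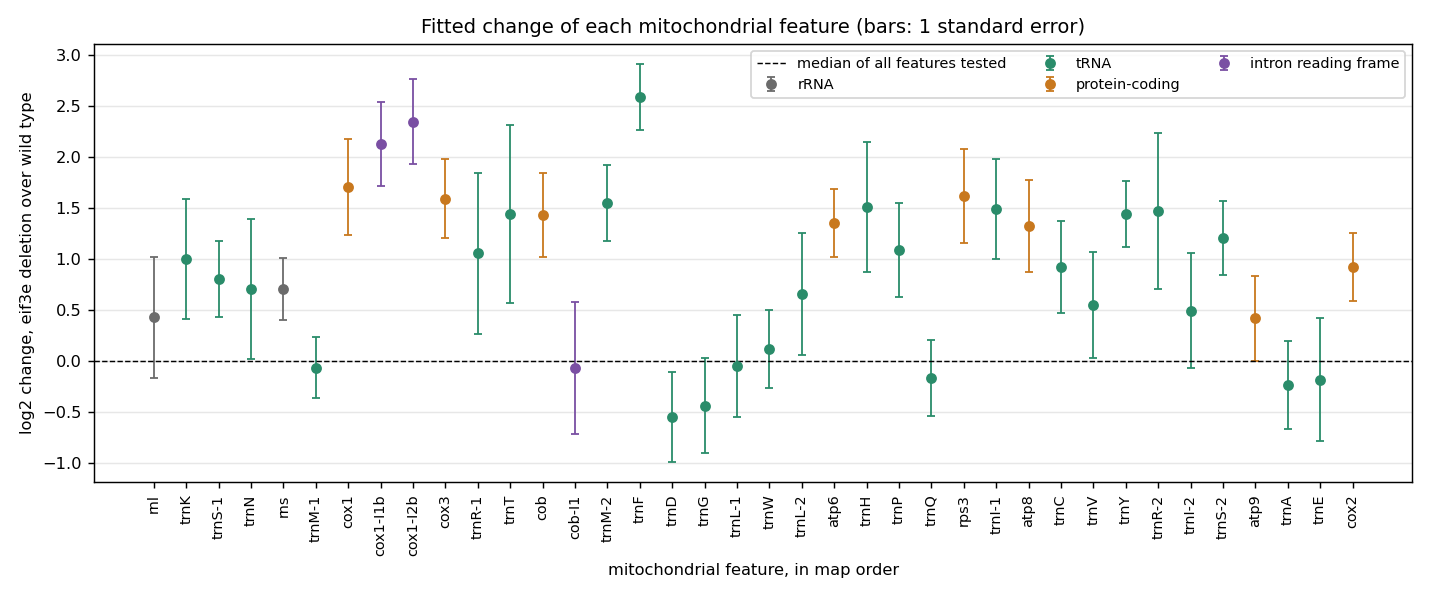
Fitted log2 change (eif3e deletion over wild type) of the 38 features in map order, with bars of 1 standard error from edgeR. The dashed line is the median of the 5915 features tested. Protein-coding genes lie between 0.42 and 1.70, cob-I1 lies at −0.07, and tRNAs range from −0.55 to 2.59.

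cox1 and cob are interrupted by introns that hold reading frames. The deposited transcript lengths of 1614 bases for cox1 and 1164 bases for cob leave 2291 and 2526 bases of their spans uncounted, which equal the intron lengths of RefSeq's annotation. The intron frames overlap their host genes on the map and on the same strand, but by length they lie outside the exons counted for the hosts. The sources used here do not say how reads at the shared ends were divided. The exon borders are shown because the junction reads described next cross them. They are RefSeq's (ASM294v3, plus strand), 5′ to 3′, with exon bases in capitals and intron bases in lower case.
cox1 first exon into intron 1, chrM:5259-5318: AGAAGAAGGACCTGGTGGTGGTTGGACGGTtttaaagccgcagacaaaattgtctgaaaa
cox1 intron 1 into exon, chrM:6469-6528: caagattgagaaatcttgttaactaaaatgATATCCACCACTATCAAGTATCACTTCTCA
cox1 exon into intron 2, chrM:6814-6873: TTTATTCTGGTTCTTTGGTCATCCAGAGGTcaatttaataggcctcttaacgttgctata
cox1 intron 2 into last exon, chrM:7895-7954: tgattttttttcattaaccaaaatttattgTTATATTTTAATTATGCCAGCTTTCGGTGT
cob first exon into intron, chrM:10829-10888: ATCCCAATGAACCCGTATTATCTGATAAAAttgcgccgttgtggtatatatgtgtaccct
cob intron into last exon, chrM:13355-13414: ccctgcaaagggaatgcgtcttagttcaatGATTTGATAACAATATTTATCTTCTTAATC

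The frames inside cox1 and the frame inside cob differed in their values. RefSeq annotates both cox1 frames with a LAGLIDADG endonuclease domain and the cob frame with a reverse transcriptase domain. cox1-I1b (positions 5291 to 6445) measured 645 and 586 CPM in wild type against 3206 and 2178 CPM in the deletion, a log2 change of 2.13 (SE 0.42, edgeR adjusted p 0.189). cox1-I2b (positions 6966 to 7718) measured 337 and 297 CPM against 2030 and 1203 CPM, a log2 change of 2.35 (SE 0.41, adjusted p 0.164). These were the largest fitted changes on the mitochondrial genome after tRNA-Phe. cob-I1 (positions 10857 to 13280) measured 36187 and 45705 CPM in wild type against 34376 and 43795 CPM in the deletion, a log2 change of −0.07 (SE 0.65, adjusted p 0.983). Its groups overlapped.

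cob-I1 was the single largest holder of mitochondrial reads. It took 62.5% and 64.4% of the mitochondrial reads outside rRNA in wild type and 45.5% and 52.4% in the deletion. The protein-coding genes took 18.4% and 12.8% of those reads in wild type and 35.5% and 26.8% in the deletion, and tRNAs took 17.5% and 21.6% against 12.1% and 16.8%. Groups did not overlap for the shares of cob-I1, protein-coding genes or tRNAs, each at an exact permutation p of 0.33, the smallest possible here. Shares sum to a fixed total, so a larger share of one class lowers the others.

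**Figure D3:**
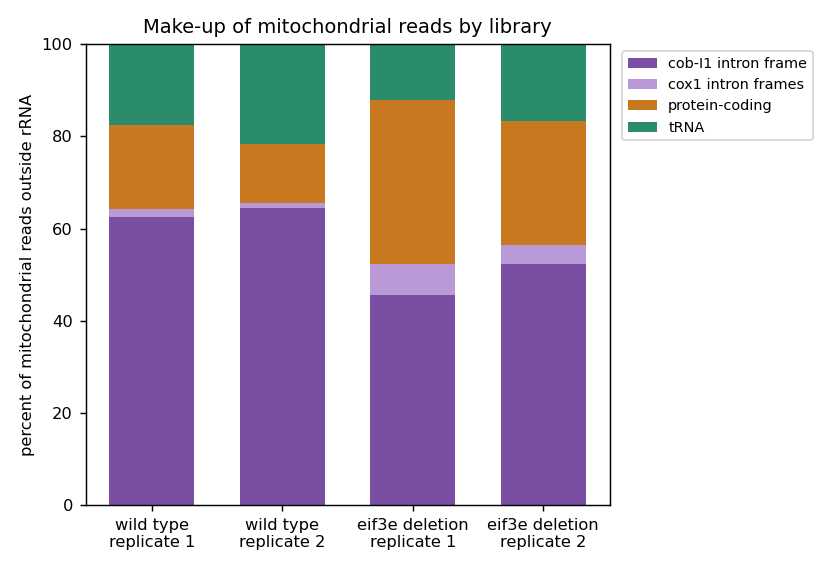
Percent of mitochondrial reads outside rRNA held by the cob-I1 frame, the 2 cox1 intron frames, the 8 protein-coding genes and the 25 tRNAs, 1 bar per library. The protein-coding segment is 18.4% and 12.8% in wild type and 35.5% and 26.8% in the deletion.

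Relative to its own exons, the cob intron frame was lower in the deletion. The ratio of cob-I1 to cob in RPKM was 13.3 and 23.4 in wild type and 5.10 and 7.47 in the deletion, with an exact permutation p of 0.33. The ratio of cox1-I1b to cox1 was 0.462 and 0.656 in wild type and 0.786 and 0.645 in the deletion, which overlap. That of cox1-I2b to cox1 was 0.370 and 0.510 against 0.763 and 0.546, which do not. The cob intron frame thus outnumbered its host exons per length in all 4 libraries, and the cox1 frames in none.

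Reads that cross exon junctions come from spliced RNA. Of the reads of cox1, 435 of 45076 and 109 of 10595 crossed a junction in wild type, and 839 of 200044 and 278 of 56101 did in the deletion. These are 0.965% (95% interval 0.877% to 1.06%) and 1.03% (0.845% to 1.24%) in wild type against 0.419% (0.392% to 0.449%) and 0.496% (0.439% to 0.557%) in the deletion, by exact Clopper-Pearson intervals that cover counting error only. The deletion intervals lay wholly below the wild-type ones for cox1. For cob, 330 of 30167 and 90 of 7952 reads crossed its junction in wild type, or 1.09% (0.980% to 1.22%) and 1.13% (0.911% to 1.39%). In the deletion, 1064 of 113671 and 289 of 33443 did, or 0.936% (0.881% to 0.994%) and 0.864% (0.768% to 0.969%). The cob shares were lower in both deletion libraries, but some of their intervals overlap those of wild type.

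Junction reads of cox1 stood at 18.8 and 12.8 CPM in wild type against 23.9 and 23.4 CPM in the deletion, and those of cob at 14.3 and 10.6 CPM against 30.3 and 24.3 CPM. These groups did not overlap. In the deposited junction RPKM they did, at 14.1 and 6.35 against 16.7 and 9.73 for cox1 and 14.9 and 7.27 against 29.4 and 14.0 for cob. The mean junction share of cox1 was 0.997% ± 0.0451 in wild type, against 0.457% ± 0.0538 in the deletion (SD, n = 2), a log2 ratio of −1.12, and that of cob 1.11% ± 0.0268 and 0.900% ± 0.0508, a log2 ratio of −0.31. Each exact permutation p was 0.33, the smallest possible. Over 244 nuclear features with a mean of at least 20 junction reads, the median junction share was 3.44% and 3.65% in wild type and 4.42% and 4.08% in the deletion, with a median log2 ratio of 0.18 and quartiles of −0.11 and 0.49. Both mitochondrial values lie below that middle range. The nuclear features were kept by unscaled junction reads averaged over all 4 libraries, so deeper libraries weighed more in that choice.

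**Figure D4:**
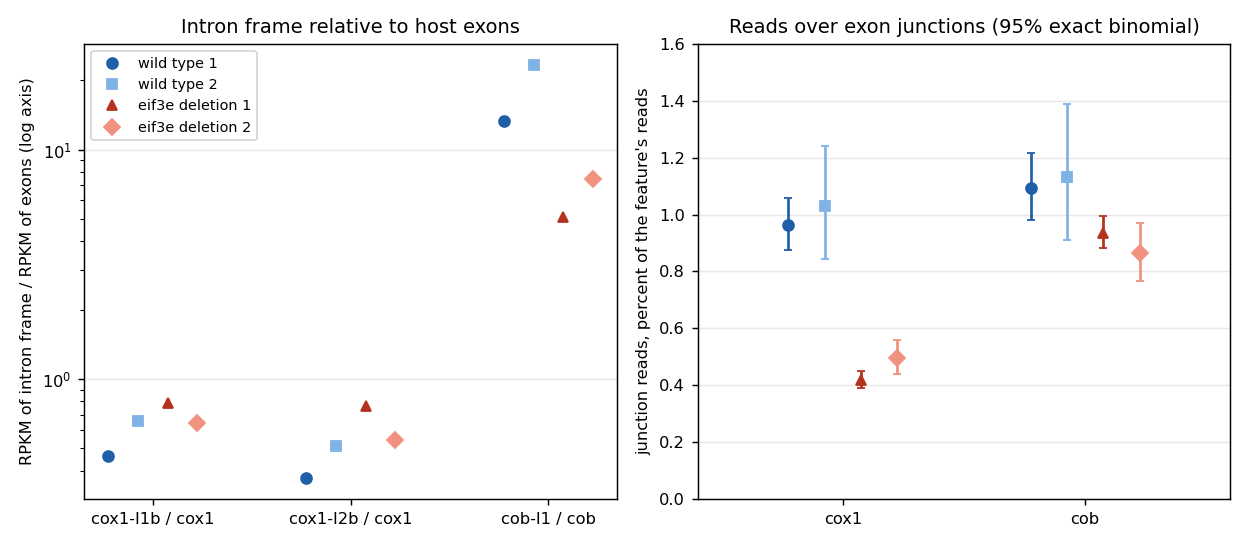
Left, RPKM of each intron frame over RPKM of its host's exons (log axis). Right, reads over exon junctions as a percent of the reads of cox1 and cob, with 95% exact binomial intervals. Points are single libraries. cox1 stands at 0.965% and 1.03% in wild type and at 0.419% and 0.496% in the deletion.

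The tRNAs were the most varied class. Of 25, 18 had a positive and 7 a negative log2 change, with a median of 0.80. That median moved with single libraries: leaving out replicate 2 of the deletion gave 0.20 and replicate 1 gave 1.37. Leaving out replicate 1 of wild type gave 0.23 and replicate 2 gave 1.49. Each of those fits lacks 1 replicate number in 1 strain. With all 4 libraries and replicate number as a block, the median was 0.77. In CPM the strains did not overlap for 10 tRNAs, with the deletion higher for 9 of 25, against 20.1% of all features, and lower for 1, against 21.4%. In RPKM the deletion was higher for 12 and lower for 4, against 6.32% and 19.9%. In CPM replicate 2 was above replicate 1 in both strains for 24 of 25 tRNAs, by a median factor of 1.65 (wild type) and 1.71 (deletion), and below it in both for 6 of the 8 protein-coding genes. In RPKM it was above in both for 10 tRNAs and below in both for 6 tRNAs and all 8 protein-coding genes. Per length, tRNA features spanned 11.6 RPKM for tRNA-Thr to 46287 RPKM for tRNA-Gly in the mean over 4 libraries.

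The largest difference lay between direct neighbours in the run of 7 tRNAs between cob and atp6. The stretch that holds tRNA-Phe, tRNA-Asp and tRNA-Gly is shown because these 3 stand a few bases apart and measured in opposite directions. It is RefSeq's sequence (ASM294v3, plus strand, chrM:14161-14387), 5′ to 3′, with the 3 tRNAs in that order in capitals and the spacers of 7 and 5 bases in lower case.
trnF to trnG: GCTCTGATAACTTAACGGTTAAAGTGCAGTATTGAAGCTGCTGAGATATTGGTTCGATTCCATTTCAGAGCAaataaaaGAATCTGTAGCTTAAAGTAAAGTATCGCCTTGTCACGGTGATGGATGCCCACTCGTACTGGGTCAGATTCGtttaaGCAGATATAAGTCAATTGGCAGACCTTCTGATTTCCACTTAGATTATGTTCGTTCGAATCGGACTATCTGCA

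For tRNA-Phe (table positions 14159 to 14230), 381 and 231 reads were counted in wild type against 4331 and 1649 in the deletion, or 16.5 and 27.2 CPM against 123 and 139 CPM. Its means were 21.9 ± 7.60 and 131 ± 10.8 CPM (SD, n = 2). The log2 change of 2.59 (SE 0.32) was the largest of the 38 members, with adjusted p of 0.0814 by edgeR and 2.88e-09 by DESeq2 (0.328 by edgeR without wild-type replicate 1). Its groups stood far apart compared with the spread within either strain.

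The other two, tRNA-Asp and tRNA-Gly, carry the highest read densities of all 25 tRNAs. tRNA-Asp (positions 14238 to 14308) measured 2720 and 3639 CPM in wild type against 1782 and 2559 CPM in the deletion, a log2 change of −0.55 (SE 0.44, edgeR adjusted p 0.736). It was the 1 mitochondrial feature whose deletion libraries both lay below wild type in CPM. In RPKM tRNA-Gly, tRNA-Ala and the elongator tRNA-Met did so too. tRNA-Gly (positions 14314 to 14385) measured 3494 and 4821 CPM against 2465 and 3671 CPM, a log2 change of −0.44 (SE 0.47, adjusted p 0.808). Its groups overlapped in CPM but not in RPKM, at 58798 and 53422 against 38693 and 34234. The ratio of tRNA-Phe to tRNA-Asp per length was 0.00597 and 0.00738 in wild type and 0.0683 and 0.0535 in the deletion. That ratio compares read densities within a library, and its groups did not overlap (exact permutation p 0.33). How evenly the libraries captured different tRNAs was not tested, so the ratio is not one of molecules.

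A trio of tRNAs share 1 anticodon, CAU, and differ in role. They are the initiator that carries the first methionine, the elongator for later methionines, and an isoleucine tRNA of a kind whose anticodon is modified in bacteria so that it reads an isoleucine codon. Their genes are shown because one measured higher in both deletion libraries and the others did not. The sequences are RefSeq's (ASM294v3, plus strand), 5′ to 3′, with the anticodon in capitals.
initiator tRNA-Met, chrM:14083-14155: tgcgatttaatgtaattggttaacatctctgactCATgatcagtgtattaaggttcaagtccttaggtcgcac
elongator tRNA-Met, chrM:4591-4665: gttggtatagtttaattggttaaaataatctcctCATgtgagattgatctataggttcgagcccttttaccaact
tRNA-Ile of that anticodon, chrM:17544-17615: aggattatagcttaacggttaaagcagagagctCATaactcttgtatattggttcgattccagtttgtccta

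The initiator measured 74.1 and 99.2 CPM in wild type against 177 and 330 CPM in the deletion, a log2 change of 1.55 (SE 0.37, edgeR adjusted p 0.260). The elongator measured 101 and 129 CPM against 87.3 and 132 CPM, a log2 change of −0.06 (SE 0.30, adjusted p 0.954). The isoleucine tRNA measured 16.4 and 39.8 CPM against 20.7 and 58.2 CPM, a log2 change of 0.49 (SE 0.57, adjusted p 0.825). In CPM the groups of the elongator and of the isoleucine tRNA overlapped. Initiator over elongator per length was 0.757 and 0.792 in wild type and 2.09 and 2.57 in the deletion, so their order by level was opposite in the 2 strains (exact permutation p 0.33).

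The next tRNAs by level lay on either side of 0. tRNA-Ala, the third by mean level, measured 1250 and 2039 CPM in wild type against 1141 and 1655 CPM in the deletion, a log2 change of −0.23 (SE 0.43, edgeR adjusted p 0.896). tRNA-Gln, the fourth, measured 1007 and 1466 CPM against 1072 and 1129 CPM, a log2 change of −0.17 (SE 0.38, adjusted p 0.919). Both had overlapping groups in CPM. Of the other abundant tRNAs, tRNA-Lys had a log2 change of 1.00 (SE 0.59, adjusted p 0.636). Those of tRNA-Trp and tRNA-Glu were 0.12 (SE 0.38, adjusted p 0.942) and −0.18 (SE 0.60, adjusted p 0.945). That of tRNA-Ser(gcu) was 0.80 (SE 0.37, adjusted p 0.520), at 157 and 229 CPM against 246 and 425 CPM without overlap. At the other end of the scale, tRNA-His had a log2 change of 1.51 (SE 0.64, adjusted p 0.497) on only 69 and 5 reads in wild type against 209 and 60 in the deletion, or 2.98 and 0.589 CPM against 5.96 and 5.05 CPM, and its groups overlapped in RPKM.

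Across the class, the most abundant tRNAs and the others differed in their values. Of the 8 with the highest mean RPKM, from 2821 to 46287, 3 had positive and 5 negative log2 changes, with a median of −0.17. Of the other 17, from 11.6 to 2023 RPKM, 15 were positive and 2 negative, with a median of 1.09. The 8 held 96.0% and 95.3% of tRNA reads in wild type and 91.2% and 89.9% in the deletion. Spearman's rho between mean RPKM and log2 change over the 25 tRNAs was −0.62. This describes tRNAs that share the same 4 libraries, and both measures are computed from the same reads. The cut at 8 was not planned beforehand, and the next tRNA by level, the initiator tRNA-Met, had a log2 change of 1.55. Signs turned when single libraries were left out for the tRNAs Ala, Gln, Trp and Glu of the 8. Among the 17 they turned for Asn, elongator Met, Leu(uaa), Val and Ile(cau). None of these signs turned with replicate number as a block.

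**Figure D5:**
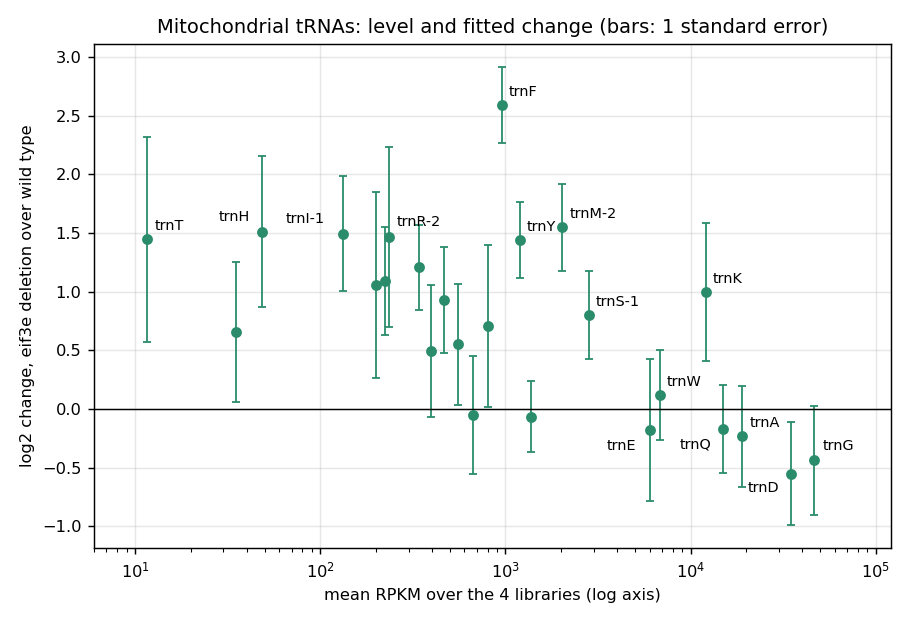
Fitted log2 change of the 25 mitochondrial tRNAs against their mean RPKM over the 4 libraries (log axis), with bars of 1 standard error. tRNA-Phe stands at 2.59, and the most abundant, tRNA-Gly and tRNA-Asp, at −0.44 and −0.55.

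By place on the map, the tRNAs stand in 8 runs between other features. The run of 3 between the rRNAs (Lys, Ser, Asn) had log2 changes from 0.71 to 1.00. The single elongator tRNA-Met before cox1 stood at −0.06, and the pair Arg and Thr between cox3 and cob at 1.06 and 1.45. The run of 7 between cob and atp6 was the widest, from −0.55 to 2.59. After it, the run of 3 between atp6 and rps3 (His, Pro, Gln) ran from −0.17 to 1.51, and the single tRNA-Ile before atp8 stood at 1.49. The run of 6 between atp8 and atp9 ran from 0.49 to 1.47. In it, tRNA-Val and tRNA-Ile(cau) were negative without wild-type replicate 1. tRNA-Arg(ucg) lay between 0.20 and 2.70 over the libraries left out. Between libraries of the same replicate number, its ratio of deletion to wild type in CPM was 2.71 for replicate 1 and 2.71 for replicate 2. That ratio was 2.17 and 1.22 for tRNA-Val and 1.26 and 1.46 for tRNA-Ile(cau). The last pair, Ala and Glu between atp9 and cox2, stood at −0.23 and −0.18.

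In the run of 6 between atp8 and atp9, tRNA-Tyr stood out by deletion libraries that lay close together, a choice made after its values were seen. Its wild-type libraries differed by a factor of 1.69. It measured 45.5 and 76.9 CPM in wild type against 156 and 176 CPM in the deletion, a log2 change of 1.44 (SE 0.32, edgeR adjusted p 0.245, DESeq2 adjusted p 0.0101). Its groups did not overlap. Nor did those of tRNA-Ser(uga) in that run, at 14.4 and 24.2 CPM against 33.1 and 55.5 CPM. Its log2 change was 1.21 (SE 0.37, edgeR adjusted p 0.345). In the run between the rRNAs, the groups of tRNA-Lys overlapped in CPM, at 343 and 1030 in wild type against 957 and 1783 in the deletion, but not in RPKM, at 5686 and 11254 against 14813 and 16399.

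The nuclear genes that make, cut and translate these RNAs showed no common direction. Of 31 found, 30 passed the filter, 14 with a positive and 16 with a negative log2 change and a median of −0.05. None passed edgeR's adjusted threshold or DESeq2's, and 1 was higher and 1 lower at an unadjusted edgeR p under 0.05, against 4.8% and 5.31% of all features. In CPM both deletion libraries lay above wild type for 5 of 30, against 20.1%, and below it for 10, against 21.4%. The lowest was trz2, which encodes the RNase Z of mitochondria, at 7.05 and 5.19 CPM in wild type against 1.05 and 3.11 CPM in the deletion, a log2 change of −1.64 (SE 0.57, adjusted p 0.403). ppr10 and mrh5, genes of a pentatricopeptide repeat protein and an RNA helicase, had log2 changes of −1.18 and −0.72. mef2, a mitochondrial elongation factor G gene, stood highest at 3.20 and 4.13 CPM against 8.83 and 8.25 CPM, a log2 change of 1.24 (SE 0.33, adjusted p 0.317), followed by cbp7 at 0.66 and mtf2 at 0.48. The named genes of this list lay below 20 CPM in every library, far below the mitochondrial protein-coding genes.

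The nuclear genes for the partner subunits of cytochrome oxidase, the bc1 complex and ATP synthase lay on the other side of 0. Of 29, 28 had a negative log2 change, with a median of −0.40. In CPM both deletion libraries were below wild type for 13, against 21.4% of all features, and above it for 0, against 20.1%. None passed edgeR's adjusted threshold or DESeq2's, and 3 were lower and 0 higher at an unadjusted edgeR p under 0.05, against 5.31% and 4.8%. cox8, atp4 and qcr7 had the lowest log2 changes, −1.05, −0.97 and −0.96, and qcr10, atp7 and atp16 the highest, 0.36, −0.00 and −0.01. The lowest, cox8, lay between 0.0855 and 1.51 CPM. The 8 mitochondrial protein-coding genes had a median of 1.39 in the same fit. The 75 nuclear mitoribosomal protein genes, of which 72 passed the filter, were split, with 38 positive, 34 negative and a median of 0.06. None passed either adjusted threshold, and 2 were higher and 2 lower at an unadjusted edgeR p under 0.05, against 4.8% and 5.31%. mrp49, mrpl19 and mrpl31 stood lowest at −1.48, −1.38 and −1.34, and mrp10, fyv4 and mrpl51 highest at 2.17, 1.37 and 0.98. mrp10 lay at 0.476 and 0 CPM in wild type against 1.88 and 0.673 CPM in the deletion, so its fitted change rests on few reads.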

How the data were processed

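Per the labels' protocols, rRNA was depleted from total RNA, which was cut with RNase III and made into SOLiD 4 libraries. TopHat 1.4.1, Bowtie 1.1.0, Partek 6.0 and SAMtools appear, with no role given, per the submitters' processing notes. Genome build, annotation and use of strand: not given in the sources used here.

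The authors deposited estimated counts per feature, not normalized, of which 89.6% to 91.9% were whole in each library within 1e-06 reads. The deposited RPKM values are reads scaled by transcript length and library reads, per the file headers, and junction and incompatible RPKM were deposited in the same unit. The authors also deposited a chi-square score and a p-value per feature, which were not used. Every column of per-library values was matched to a labelled sample.

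Names of the 38 mitochondrial features came from RefSeq genes (assembly ASM294v3) that overlapped them reciprocally by at least 70%. The largest difference of start was 121 bases, and the amino acid matched for 25 of 25 tRNAs. In these IDs the table writes chr1 in place of the letter I. Sequences printed here are RefSeq's, at RefSeq's own coordinates. Other coordinates are the table's, whose stop value was lowered by 1 to give the last base.

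Counts were rounded to whole numbers and fitted over the whole table with edgeR 4.0.16 in R 4.3.3 (TMM, filterByExpr, quasi-likelihood F test, two-sided, strain as the only term), with Benjamini-Hochberg adjustment over 5915 features and a threshold of 0.05. Levels called CPM are counts scaled by TMM to a common total. DESeq2 1.42.0 and limma-voom (limma 3.58.1), other scalings, no filter, a replicate block, overlapping features summed to 1 locus, and leaving out each library were alternatives. The edgeR step was also run on simulated data, with means and dispersion taken from these libraries. No result given here rests on that run. Junction reads were recovered as junction RPKM times length times library reads, and 100% came out whole within 0.05 reads. Their intervals are exact Clopper-Pearson. For single ratios and shares an exact permutation test, two-sided, was used. With 2 libraries against 2 it cannot go below 0.33. Scripts ran in Python 3.11.15 with scipy 1.17.1, pandas 2.3.3 and matplotlib 3.10.9.

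Members, lists and tests were chosen with earlier results of these data known. Values in every library are given for both rRNAs, every protein-coding gene and intron reading frame, the 4 tRNAs with the highest mean RPKM and the 3 with the highest and 3 with the lowest log2 change. From each nuclear list the 3 highest and 3 lowest changes are named. The list for mitochondrial RNA synthesis lost 5 symbols, 4 that RefSeq describes with other functions and trz1, the nuclear enzyme, and mitoribosomal proteins were found by the words "mitochondrial ribosomal protein" with an optional subunit size between them.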

Additional observations from a re-analysis of the deposited data

Results flagged for a closer look

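Reads incompatible with the annotated transcript were deposited in a column that the comparisons above do not use. On the mitochondrial genome they appeared only in deletion replicate 1, the deepest of the 4 libraries, and not in deletion replicate 2 or wild type. They stood at 0.388 RPKM for tRNA-Ser of the run between the rRNAs, 0.0200 RPKM for cox1 and 0.219 RPKM for atp8. Each value equals 1 read.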

How the results depend on the processing

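Of the 38 log2 changes, 28 kept their sign under every alternative tried. Over all features edgeR called 1 higher and 0 lower. The counts were 8 and 12 with totals only, 15 and 5 with no filter, and 49 and 41 with DESeq2. Without single libraries they ran from 0 to 70 higher and from 0 to 172 lower. Such fits hold 1 library of a strain, which is assumed to vary like those of the other. Of the mitochondrial features, 0 were called higher, against 3 with totals only, 1 with no filter, 10 with DESeq2 and 0 to 5 without single libraries, and 0 were called lower throughout. Titles give the libraries of each replicate number a prefix shared by both strains, but the labels do not say what it marks. Deviations of same-numbered libraries correlated at 0.238. With the replicate block edgeR called 88 higher and 105 lower features, among them 16 and 0 mitochondrial ones, 8 of them tRNAs. In that fit the median log2 change of the 25 tRNAs was 0.77. Scaling by totals moved the median of all features by −0.16 and the rRNA median log2 change to 0.41 from 0.57. The median of the intron frames, 2.13, ran from 1.83 (without deletion replicate 1) to 2.39 over the libraries left out. tRNA-Phe, at an edgeR adjusted p of 0.0814, ranged from 2.88e-09 (DESeq2) to 0.328 (without wild-type replicate 1). The strain difference in mitochondrial share, 1.32 percentage points, was 5.62 with nuclear rRNA left out and 4.33 with no rRNA, and ran from −1.03 (without deletion replicate 1) to 3.67 (without deletion replicate 2). With the deposited RPKM in place of CPM, a comparison chosen after seeing the data, the count of members higher without overlap was 21 on both scales, though not of the same members, and 4 in place of 1 were lower. Summing overlapping features changed no mitochondrial call, and moved cob from 1.43 to 0.0019 and cox1 from 1.70 to 1.91.

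Signs turned for 10 members when single libraries were left out. Their log2 changes ran from −0.60 to 1.63 for tRNA-Asn, from −0.39 to 0.21 for the elongator tRNA-Met, and from −0.25 to 0.11 for cob-I1. They ran from −0.90 to 0.51 for tRNA-Leu(uaa), from −0.30 to 0.45 for tRNA-Trp, and from −0.42 to 0.13 for tRNA-Gln. They ran from −0.051 to 1.55 for tRNA-Val, from −0.42 to 1.26 for tRNA-Ile(cau), from −0.55 to 0.16 for tRNA-Ala and from −1.06 to 0.68 for tRNA-Glu. With totals only, tRNA-Trp stood at −0.095. With replicate number as a block, 0 of the 38 members reversed sign. Between libraries of the same replicate number, both pairs differed in the same direction for cob-I1 and the tRNAs Asn, Val, Ile(cau), Ala and Glu. The pairs went opposite ways for the tRNAs Leu(uaa), Trp, Gln and elongator Met. The causes of the turned signs were not tested. Depth limits the rarest tRNAs, of which tRNA-Thr held 10 and 5 reads in wild type.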

Other observations

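Of the 38 features, 6 share 30-base words with the nuclear chromosomes of RefSeq's genome, either strand. Words were counted over RefSeq's gene spans. Its span of the second cox1 intron frame is longer than the 753 bases of the feature whose reads are given above. The second cox1 intron frame had 162 of 943 such words, which are also the 162 counted for the whole span of cox1, cox2 had 27 of 718, rnl 11 of 2794 and cob-I1 10 of 2395. Reads from these stretches could be placed at either site; the sources used here do not say how such reads were treated. No tRNA, and none of cox3, atp6, atp8, atp9, rps3, rns and the first cox1 intron frame, had one.

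The GC content of the tRNA genes, from 27.5% for tRNA-Cys to 47.9% for tRNA-Asp in RefSeq, did not follow the changes: Spearman's rho over the 25 tRNAs was −0.04 between GC content and log2 change and 0.32 between GC content and mean RPKM, given as a description.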
